A study of Mus musculus with 18 samples.

Results

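The genes described here are 9 imprinted genes that have been linked to the expansion of fat tissue: Mest, Peg3, Zim1, Nnat, Plagl1, Ndn, Cdkn1c, H19 and Meg3. They were chosen by symbol, each has 1 row, and they are 9 of the 52093 symbols in the deposited expression tables. RNA-seq was performed with adipocytes isolated from inguinal white adipose tissue (iWAT adipocytes), adipocytes isolated from epididymal white adipose tissue (eWAT adipocytes) and whole brown adipose tissue (BAT), with 6 samples per tissue. The mice were wild type C57BL/6 males that had consumed a high-fat diet (HFD) over 12 weeks and were 16 weeks old, and no genotype or drug differed between the groups. The substrain is named differently in the sources, as C57BL/6J in the extraction protocol and as C57BL/6NTac in the study's supplement. A treatment field of the labels names regular chow, whereas the titles, the design text and the extraction protocol name the HFD, and the samples were taken as HFD samples. White adipocytes were released with collagenase and collected as the floating layer, and BAT was frozen without digestion. The comparison of the 9 genes between iWAT and eWAT adipocytes therefore concerned cells prepared in the same way, whereas tissue and preparation cannot be told apart in either comparison with BAT. No chow samples were analysed here, so every value refers to the HFD.

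Imprinted genes are transcribed mainly from the maternal or from the paternal chromosome, and many of them control growth before and after birth. Mest, Peg3, Plagl1, Nnat and Ndn are expressed from the paternal allele, whereas Zim1, Cdkn1c, H19 and Meg3 are expressed from the maternal allele. In white fat, Mest is known for levels that rise when adipocytes enlarge and that vary widely among genetically identical mice on a high-fat diet. The RNA-seq reads were not assigned to parental alleles, so the values below are the sum over both alleles.

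Sequences are shown first for the miRNAs that lie inside 3 of the genes, since they locate small RNAs within the deposited rows. The mature sequences are from RefSeq, with bases 2 to 8 (the seed) in capitals, and the hairpins were placed on mm9 by exact match. The mature miRNAs themselves were not measured here. The hairpin of miR-335 lies in an intron of Mest at chr6:30691299-30691396 on the + strand, that of miR-675 in an exon of H19 at chr7:149762969-149763052 on the - strand, and that of miR-770 in an exon of Meg3 at chr12:110801902-110801995 on the + strand. The 6 mature sequences have 6 different seeds, so none of these miRNAs shares a seed with another.
mmu-miR-335-5p: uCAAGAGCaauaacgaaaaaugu
mmu-miR-335-3p: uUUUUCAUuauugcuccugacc
mmu-miR-675-5p: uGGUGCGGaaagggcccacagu
mmu-miR-675-3p: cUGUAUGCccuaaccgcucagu
mmu-miR-770-5p: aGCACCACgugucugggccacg
mmu-miR-770-3p: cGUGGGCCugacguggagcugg

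Promoter sequences of 4 genes are shown as examples of both orders of tissues: Mest, Peg3 and Nnat, which were higher in iWAT than in eWAT adipocytes, and Ndn, which was highest in BAT. Each window holds the 250 bases upstream of a RefSeq gene start (sequence table of build GRCm38.p6), was placed on mm9 by exact match and is written 5′ to 3′ on the strand of the gene, with CpG dinucleotides, the sites of DNA methylation that imprinting depends on, in capitals. RefSeq windows were found for 7 of the 9 genes, 10 windows in all and none for H19 and Cdkn1c. The Mest window starts inside the deposited row, which has a further upstream start, and it is the window of the more downstream RefSeq starts.
Mest, chr6:30687800-30688049 (+): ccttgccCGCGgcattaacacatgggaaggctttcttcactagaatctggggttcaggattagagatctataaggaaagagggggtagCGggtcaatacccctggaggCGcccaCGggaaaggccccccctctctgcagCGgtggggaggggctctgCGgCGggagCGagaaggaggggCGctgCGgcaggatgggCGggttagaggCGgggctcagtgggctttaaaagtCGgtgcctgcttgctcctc
Peg3, chr7:6683131-6683380 (-): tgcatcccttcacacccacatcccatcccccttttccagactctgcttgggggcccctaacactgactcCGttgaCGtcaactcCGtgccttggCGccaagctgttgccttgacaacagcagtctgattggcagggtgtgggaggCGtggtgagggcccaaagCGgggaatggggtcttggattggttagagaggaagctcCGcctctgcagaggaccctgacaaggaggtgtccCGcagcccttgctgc
Nnat, chr2:157385564-157385813 (+): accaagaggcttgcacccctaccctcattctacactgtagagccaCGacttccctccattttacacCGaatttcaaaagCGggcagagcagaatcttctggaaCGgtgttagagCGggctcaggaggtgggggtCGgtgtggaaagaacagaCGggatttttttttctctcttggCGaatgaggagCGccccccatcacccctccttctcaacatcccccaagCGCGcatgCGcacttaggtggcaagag
Ndn, chr7:69492913-69493162 (+): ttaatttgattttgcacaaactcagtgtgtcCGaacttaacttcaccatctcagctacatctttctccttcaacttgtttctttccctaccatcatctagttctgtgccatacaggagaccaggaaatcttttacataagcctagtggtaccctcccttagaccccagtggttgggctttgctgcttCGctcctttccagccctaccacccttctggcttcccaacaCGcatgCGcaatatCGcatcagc

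The Mest window held 14 CpG, that of Nnat 12, that of Peg3 8 and that of Ndn 5, compared with a median of 6 over the 32851 windows of the table. Zim1 and Meg3, both maternally expressed, had 14 and 10 CpG in the windows nearest to their row starts, and Plagl1 had 19, the most of the 7 genes. At least as many CpG as in the Plagl1 window were found in 19.7% of all windows, and at least as many as in the Ndn window in 55.6%. The GC box GGGCGG, searched on both strands, was present in the windows of Mest, Zim1 and Plagl1 and absent from those of Peg3, Nnat, Ndn and Meg3, and 32.7% of all windows hold it; each match contains a CpG. TATAAA, searched in the same way, was found in the upstream Meg3 window alone among these windows, and 12.4% of all windows hold it. These matches describe the letters of the windows, and methylation was not measured here.

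On mm9, the deposited rows of the 9 genes lie on 5 chromosomes. Mest lies at chr6:30673547-30698465, and 912 bases of its row overlap the antisense gene Copg2. Peg3 (chr7:6656603-6683132) and Zim1 (chr7:6628154-6649161) are neighbours on the - strand, and Peg3 overlaps the antisense transcript Apeg3 by 865 bases. Nnat (chr2:157385814-157388258) lies entirely within the row of Blcap on the other strand. Ndn (chr7:69493163-69495148) overlaps 2 unnamed antisense transcripts, AK142799 and AK014392. Plagl1 lies at chr10:12810497-12851500, Cdkn1c at chr7:150644244-150646955, H19 at chr7:149761434-149764051 and Meg3 at chr12:110779206-110809939. How reads were assigned to a strand is not given in the sources used here, so counts of Mest, Peg3, Nnat, Ndn and Meg3 may include reads of an overlapping gene.

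Reads on the deposited rows numbered 26768529 to 30166441 per iWAT sample, 24655056 to 37438994 per eWAT sample and 27402247 to 42518483 per BAT sample. Summed RPKM (read counts scaled to transcript length and to the total reads of a sample) of 10 adipocyte markers, a list with Adipoq and Fabp4, lay between 12122 and 17200 in iWAT, between 2704 and 8350 in eWAT, and between 5978 and 7356 in BAT. The eWAT samples of mice 3 and 1 had the lowest sums, 2704 and 3663. All 10 macrophage markers were higher in eWAT than in iWAT adipocytes, and their summed RPKM was 3314 to 5358 in eWAT against 557 to 1067 in iWAT. In BAT, the 10 brown adipocyte markers, a list with Ucp1, summed to 2969 to 4216 RPKM, compared with 9.39 to 30.2 in eWAT adipocytes and 52.5 to 77.1 in iWAT adipocytes. Skeletal muscle markers summed to 2.18 to 156 RPKM among the BAT samples. In bulk samples such as these, fewer cells of a type and less RNA per cell cannot be told apart.

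Mest, which encodes a membrane protein of the endoplasmic reticulum with a hydrolase fold, had the highest mean RPKM of the 9 genes in both white depots and fell in the order iWAT, eWAT, BAT. In iWAT adipocytes its lowest, median and highest values were 168, 194 and 302 RPKM (mean 212 ± 49.1 SD, n = 6). In eWAT adipocytes they were 31.6, 81.5 and 136 RPKM (mean 80.2 ± 42.0 SD, n = 6), and in BAT 1.86, 2.95 and 3.72 RPKM (mean 2.80 ± 0.745 SD, n = 6). No sample of a tissue overlapped a sample of another. The level was 2.66-fold higher in iWAT than in eWAT adipocytes (log2 fold change 1.41 ± 0.33 SE, adjusted p by edgeR = 0.00205) and 49.9-fold higher than in BAT (5.64 ± 0.22, adjusted p = 5.23e-12). In eWAT adipocytes, Mest was 19.1-fold higher than in BAT (log2 fold change 4.25 ± 0.35, adjusted p = 2.19e-08). The eWAT values were also the more dispersed: their coefficient of variation (SD divided by mean) was 52.4%, higher than that of 99.5% of the 14059 genes with a mean of at least 1 RPKM in this tissue, compared with 23.2% in iWAT adipocytes. Mouse 2 had the highest Mest RPKM in all 3 tissues, although with TMM scaling mouse 5 (4.67) and mouse 2 (4.66) were level in BAT. The lowest eWAT values belonged to mice 3 and 1, and the ranking in iWAT adipocytes also placed mice 1 and 3 at the low end, with 168 and 181 RPKM. These were also the 2 iWAT samples of sequencing lane 1, so mouse and lane cannot be told apart in that ranking.

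**Figure D1:**
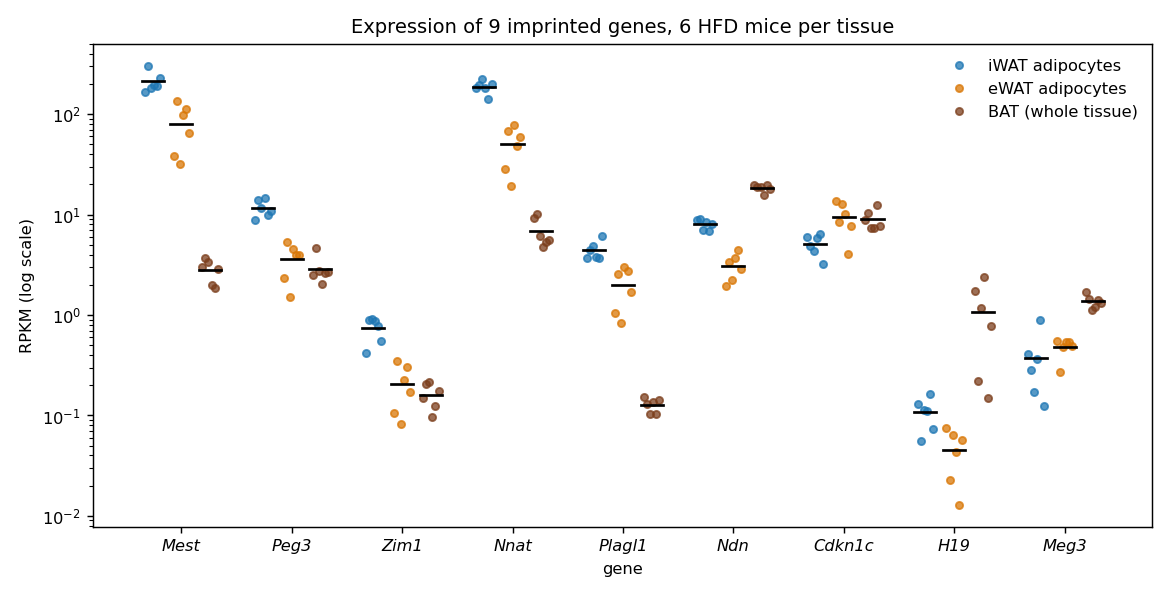
RPKM of the 9 imprinted genes (log scale) in each of 6 samples of iWAT adipocytes, eWAT adipocytes and BAT, with a black bar at the mean. Mest, Nnat and Plagl1 fell from iWAT to eWAT to BAT without overlap, Ndn and Meg3 were highest in BAT, and H19 ranged 15.9-fold among the BAT samples.

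Peg3 and Zim1, neighbouring genes that encode zinc finger proteins, were both higher in iWAT adipocytes than in the other tissues. Peg3 had a lowest, median and highest value of 8.75, 11.2 and 14.5 RPKM in iWAT adipocytes, 1.53, 3.97 and 5.39 RPKM in eWAT adipocytes, and 2.03, 2.64 and 4.67 RPKM in BAT. The corresponding values of Zim1 were 0.418, 0.828 and 0.912 RPKM in iWAT adipocytes, 0.0832, 0.20 and 0.349 RPKM in eWAT adipocytes, and 0.0958, 0.164 and 0.214 RPKM in BAT. For each gene, all iWAT samples lay above all samples of the other 2 tissues, while eWAT and BAT overlapped. The iWAT level of Peg3 was 3.24-fold that of eWAT adipocytes (log2 fold change 1.69 ± 0.27 SE, adjusted p by edgeR = 0.000101) and 2.69-fold that of BAT (1.43 ± 0.17, adjusted p = 1.51e-06). Zim1 was 3.58-fold higher than in eWAT adipocytes (1.84 ± 0.32, adjusted p = 0.000242) and was also higher than in BAT (log2 fold change 1.58 ± 0.24, adjusted p = 1.82e-05). Between eWAT adipocytes and BAT neither gene passed the test (Peg3 -0.25 ± 0.25, adjusted p = 0.371, Zim1 -0.23 ± 0.33, adjusted p = 0.525). The sign of this last difference depended on the scaling, and Peg3 was called higher in eWAT adipocytes (0.65, adjusted p = 0.0261) when samples were scaled to their total count. Zim1 rested on 8 to 101 reads per sample, whereas Peg3 had at least 605.

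Nnat encodes neuronatin, a small protein of the endoplasmic reticulum, and resembled Mest in level and order. Values in iWAT adipocytes ranged from 140 to 226 RPKM around a median of 188 (mean 187 ± 28.2 SD, n = 6). In eWAT adipocytes they ranged from 19.4 to 78.3 RPKM with a median of 53.9 (mean 50.3 ± 22.8), and in BAT from 4.78 to 10.1 RPKM with a median of 5.84 (mean 6.83 ± 2.22). The ranges of the 3 tissues did not overlap. Nnat was 3.73-fold higher in iWAT than in eWAT adipocytes (log2 fold change 1.90 ± 0.29 SE, adjusted p by edgeR = 8.58e-05), the largest fold between the white depots among the 9 genes. It was 18.1-fold higher in iWAT adipocytes than in BAT (4.18 ± 0.19, adjusted p = 2.25e-11) and 4.92-fold higher in eWAT adipocytes than in BAT (2.30 ± 0.30, adjusted p = 3.48e-06). Blcap, whose row contains Nnat on the opposite strand, was at 16.4, 9.46 and 13.1 RPKM in iWAT, eWAT and BAT, so its means did not follow the order of Nnat. Blcap passed in favour of iWAT over eWAT adipocytes (log2 fold change 0.81, adjusted p = 6.06e-05) and was at -0.75 per adipocyte marker read (adjusted p = 0.00967), a scaling under which the median of all genes was -1.61.

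Plagl1, a zinc finger transcription factor known to regulate other imprinted genes, was also graded from iWAT to eWAT to BAT. Its lowest, median and highest values were 3.71, 4.12 and 6.11 RPKM in iWAT adipocytes, 0.835, 2.11 and 2.97 RPKM in eWAT adipocytes, and 0.102, 0.134 and 0.153 RPKM in BAT. The ranges were separate, and the BAT values rested on 25 to 50 reads per sample. The iWAT level was 2.27-fold higher than in eWAT adipocytes (log2 fold change 1.18 ± 0.29 SE, adjusted p by edgeR = 0.00282) and 22.9-fold higher than in BAT (4.52 ± 0.18, adjusted p = 5.75e-12). The eWAT level was 10.2-fold that of BAT (3.35 ± 0.31, adjusted p = 8.73e-08).

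Ndn encodes necdin, a protein known to restrain the formation of adipocytes, and its order of tissues was BAT, iWAT, eWAT. The lowest, median and highest values were 15.9, 18.8 and 19.8 RPKM in BAT, 6.94, 8.29 and 8.98 RPKM in iWAT adipocytes, and 1.93, 3.12 and 4.48 RPKM in eWAT adipocytes, again without overlap. BAT exceeded iWAT adipocytes 3.50-fold (log2 fold change of iWAT over BAT -1.81 ± 0.08 SE, adjusted p by edgeR = 2.58e-11) and eWAT adipocytes 9.03-fold (-3.17 ± 0.16, adjusted p = 7.91e-11). Ndn was 2.62-fold higher in iWAT than in eWAT adipocytes (1.39 ± 0.18, adjusted p = 2.2e-05). In BAT it varied little between mice, with a coefficient of variation of 7.83%, and 6.76% of the 12501 genes with a mean of at least 1 RPKM in BAT varied less.

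Cdkn1c, which encodes an inhibitor of cyclin-dependent kinases, was the only gene of the 9 called higher in eWAT than in iWAT adipocytes. Its lowest, median and highest values were 3.22, 5.33 and 6.46 RPKM in iWAT adipocytes, 4.10, 9.29 and 13.7 RPKM in eWAT adipocytes, and 7.36, 8.20 and 12.5 RPKM in BAT. The white depots overlapped through mouse 5, whose eWAT value of 4.10 RPKM was the lowest of that depot and whose iWAT value of 6.46 RPKM was the highest of its own. BAT lay above all iWAT samples and within the range of the eWAT samples. The eWAT level was 1.85-fold that of iWAT adipocytes (log2 fold change of iWAT over eWAT -0.89 ± 0.24 SE, adjusted p by edgeR = 0.00533), and BAT exceeded iWAT adipocytes 2.69-fold (-1.43 ± 0.15, adjusted p = 2.74e-07). The difference between eWAT adipocytes and BAT was close to the threshold (-0.51 ± 0.22, adjusted p = 0.0474). It was lost when any of 8 of the 12 samples was left out: with adjusted p = 0.0895, 0.0619, 0.0646 and 0.0995 without eWAT mouse 2, 4, 5 or 16, and with 0.0509, 0.0662, 0.0532 and 0.0967 without BAT mouse 1, 2, 16 or 17. Its sign turned under scaling to the total count (0.40, adjusted p = 0.12).

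The long noncoding RNA H19, a source of miR-675, was close to the limit of detection in white adipocytes and varied strongly in BAT. It had 4 to 13 reads per sample in iWAT adipocytes (0.0560 to 0.164 RPKM, median 0.112) and 1 to 8 reads in eWAT adipocytes (0.0129 to 0.0743 RPKM, median 0.0501). In BAT it had 14 to 150 reads, and the values were 1.74 RPKM in mouse 1, 0.218 in mouse 2, 1.19 in mouse 5, 2.40 in mouse 16, 0.151 in mouse 17 and 0.784 in mouse 18. Mice 2 and 17 thus had the lowest BAT values, and that of mouse 17 overlapped the highest iWAT value. H19 was higher in BAT than in iWAT adipocytes (log2 fold change -3.93 ± 0.65 SE, adjusted p by edgeR = 5.07e-05) and than in eWAT adipocytes (-5.09 ± 0.74, adjusted p = 1.18e-05). The mean of 6.25 reads in the 12 white samples was below the minimum of 10, so H19 was not tested between the white depots. Without this minimum, it was called higher in iWAT adipocytes (log2 fold change 1.21, adjusted p = 0.02), at counts that are too low to set its size.

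Meg3, a long noncoding RNA of the Dlk1-Dio3 region and host of miR-770, was highest in BAT. Its values ranged from 1.12 to 1.71 RPKM with a median of 1.36 in BAT, from 0.272 to 0.557 with a median of 0.512 in eWAT adipocytes, and from 0.125 to 0.890 with a median of 0.325 in iWAT adipocytes. BAT did not overlap either white depot, whereas the white depots overlapped. Meg3 was 5.65-fold higher in BAT than in iWAT adipocytes (log2 fold change -2.50 ± 0.32 SE, adjusted p by edgeR = 3.9e-06) and 4.29-fold higher than in eWAT adipocytes (-2.10 ± 0.15, adjusted p = 3.11e-09). The white depots did not pass the test (-0.36 ± 0.36, adjusted p = 0.389). Mouse 5 decided this result, since Meg3 was called higher in eWAT adipocytes without the iWAT sample of that mouse (-0.80, adjusted p = 0.0214). In iWAT adipocytes the coefficient of variation was 73.4%, higher than that of 99.8% of genes with a mean of at least 1 RPKM there, although Meg3 itself lay below that mean.

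Of the 8 genes tested between iWAT and eWAT adipocytes, 6 were higher in iWAT (Mest, Peg3, Zim1, Nnat, Plagl1 and Ndn) and 1 in eWAT (Cdkn1c). Among all 19623 genes tested, 68.6% were called, 34.1% higher in iWAT and 34.5% higher in eWAT. The median log2 fold change of the 8 genes was 1.40, and that of all genes 0.00. Between iWAT adipocytes and BAT, all 9 genes were called, 5 higher in iWAT (Mest, Peg3, Zim1, Nnat and Plagl1) and 4 higher in BAT (Ndn, Cdkn1c, H19 and Meg3). Here 75.3% of all 19745 genes were called, 38.1% higher in iWAT and 37.2% higher in BAT, and the medians were 1.43 for the 9 genes and 0.01 for all. Between eWAT adipocytes and BAT, 3 were higher in eWAT (Mest, Nnat and Plagl1), 4 were higher in BAT (Ndn, Cdkn1c, H19 and Meg3) and 2 did not pass, with 82.5% of all 20076 genes called, 41.1% higher in eWAT and 41.4% higher in BAT. The medians were -0.25 for the 9 genes and -0.02 for all. Most genes differed between these tissues, so a call alone does not set any of the 9 genes apart from other genes.

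Scaling mattered for the comparisons with BAT. Without TMM, the normalization that aligns the bulk of genes, the median of all genes moved by 0.85 toward iWAT and by 0.90 toward eWAT adipocytes on the log2 scale against BAT, and by -0.08 between the white depots. Scaled to the total count, 81.8% of the genes called between iWAT adipocytes and BAT were higher in iWAT, compared with 50.6% under TMM, while the 9 genes were still called 5 higher in iWAT and 4 higher in BAT. Between eWAT adipocytes and BAT, the share called higher in eWAT was 76.1% against 49.8%, and the 9 genes were split 4 and 3 in place of 3 and 4. RPKM values are scaled to the total, so side by side they show BAT lower than the TMM fold changes do.

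**Figure D2:**
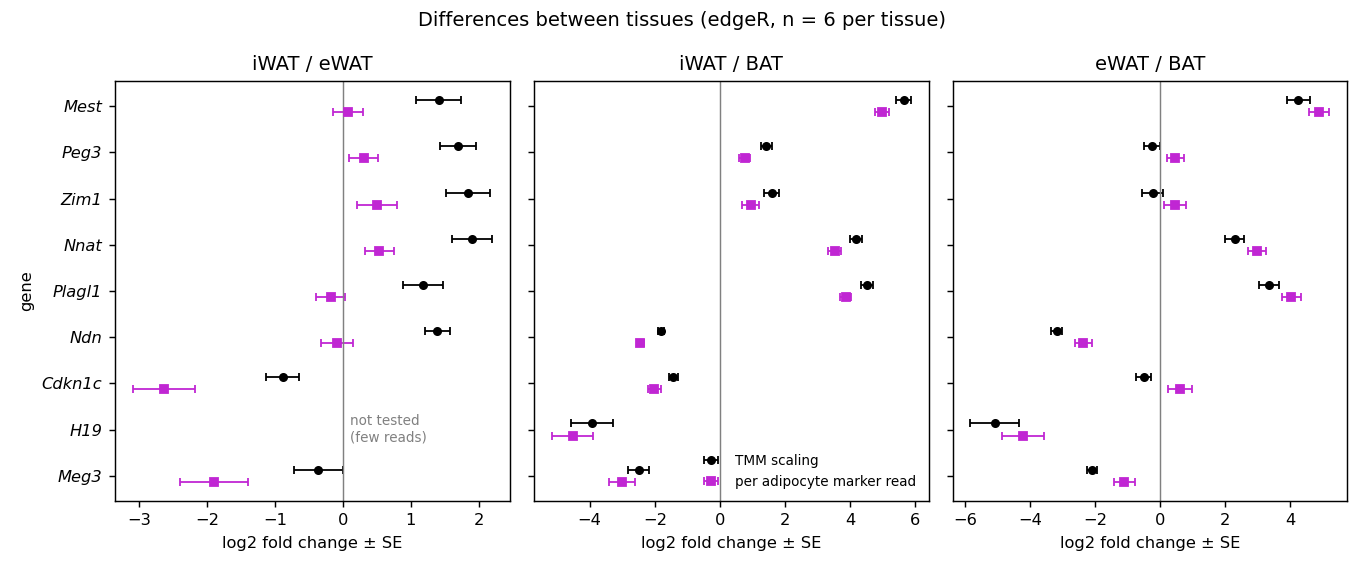
Log2 fold changes with SE of the 9 genes in the 3 comparisons (edgeR, 6 samples per tissue), with TMM scaling in black and with counts scaled to the reads on 10 adipocyte markers in magenta. Between the white depots the scaling moved Mest from 1.41 to 0.08 and Cdkn1c from -0.89 to -2.63, whereas against BAT Mest, Nnat and Plagl1 stayed above 2 under either scaling.

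Markers of several cell types were higher in iWAT than in eWAT adipocytes, as were 6 of the 8 tested imprinted genes. The median log2 fold change of all 8, with Cdkn1c and Meg3, was 1.40. All 10 adipocyte markers were higher, with a median log2 fold change of 1.43. So were 9 of 10 endothelial markers (median 1.64), 9 of 10 mural and smooth muscle markers (1.45), 8 of 9 tested brown adipocyte markers (1.67), 5 of 7 skeletal muscle markers (3.35) and 4 of 6 Schwann cell and nerve markers (3.11). Of the progenitor and fibroblast markers, 3 were higher in iWAT and 1 in eWAT (median 0.06), and 5 of 6 mesothelial markers were higher in eWAT (-5.47). When the counts were scaled to the reads on these 10 markers, an alternative chosen after seeing the data, 3 of the 8 genes were called, compared with 7 under TMM. Nnat was still higher in iWAT adipocytes (0.54 ± 0.21, edgeR adjusted p = 0.0259). Mest (0.08, adjusted p = 0.754), Peg3 (0.30, adjusted p = 0.193), Zim1 (0.50, adjusted p = 0.118), Plagl1 (-0.18, adjusted p = 0.438) and Ndn (-0.09, adjusted p = 0.729) did not pass. Cdkn1c (-2.63 ± 0.46, adjusted p = 6.12e-05) and Meg3 (-1.90 ± 0.50, adjusted p = 0.00184) were higher in eWAT adipocytes. On this scale 84.9% of all genes were called, 84.1% higher in eWAT and 0.82% higher in iWAT, and the median of all genes was -1.61. Against BAT, all 9 genes kept their call and direction in iWAT adipocytes, where 76.4% of all genes were called, 17.1% higher in iWAT and 59.3% higher in BAT. In eWAT adipocytes against BAT, 6 were called, with Peg3, Zim1 and Cdkn1c not passing, and 72.8% of all genes were called, 56.8% higher in eWAT and 16.1% higher in BAT. Per adipocyte marker read, the fold of Mest over BAT was 31.4 for iWAT adipocytes and 29.8 for eWAT adipocytes. The 10 markers did not move as a set against BAT. Under TMM, iWAT exceeded BAT for 6 of them, BAT exceeded iWAT for 3, and 1 did not pass. Compared with eWAT adipocytes, BAT was lower for 3 markers and higher for 5, and 2 did not pass. The folds over BAT thus refer to a mixed sum and are not levels per adipocyte.

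Within eWAT adipocytes, Mest, Peg3, Zim1, Nnat and Plagl1 varied less between mice once divided by the adipocyte markers. Divided by the summed RPKM of the adipocyte markers, the coefficient of variation of Mest between eWAT samples was 20.8%, compared with 52.4% for its RPKM. It was 9.10% against 39.6% for Peg3, 21.7% against 51.4% for Zim1, 17.2% against 45.3% for Nnat and 15.9% against 46.1% for Plagl1. Ndn changed little, with 27.4% against 30.5%, and its r with the adipocyte sum was 0.815 (exact p = 0.0542, adjusted p = 0.263, rho 0.714 with exact p = 0.136, 0.293 without 2 samples). For Cdkn1c, Meg3 and H19 the ratio varied more than the RPKM, with 78.6% against 37.3%, 54.3% against 22.0% and 86.0% against 52.8%. Peg3 RPKM and the adipocyte sum had a Pearson r of 0.984 over the 6 eWAT samples (exact permutation p = 0.00278, adjusted p = 0.075 over 189 relations of the 9 genes with markers of 7 cell types in 3 tissues, Spearman rho 0.943, exact p = 0.0167). Without the 2 samples farthest from the median adipocyte sum, r was 0.859. For Mest, r was 0.968 (exact p = 0.00417, adjusted p = 0.0875, rho 0.943, exact p = 0.0167), and 0.833 without 2 samples. The skeletal muscle sum, only 2.23 to 7.15 RPKM in eWAT, was related to Mest to the same degree (r = 0.968, exact p = 0.00278, adjusted p = 0.075, rho 0.943 with exact p = 0.0167, 0.983 without 2 samples). In eWAT, 5 of the 9 genes had an unadjusted p below 0.05 with adipocyte markers, 6 with macrophage markers and 6 with skeletal muscle markers. None of the 189 relations passed after adjustment, and 36 had an unadjusted p below 0.05. Macrophage markers ran the other way in eWAT, with r of -0.966 for Plagl1 (exact p = 0.00278, adjusted p = 0.075, rho -0.943 with exact p = 0.0167, -0.875 without 2 samples). Whether a changed share of adipocytes accounts for these values was not tested.

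**Figure D3:**
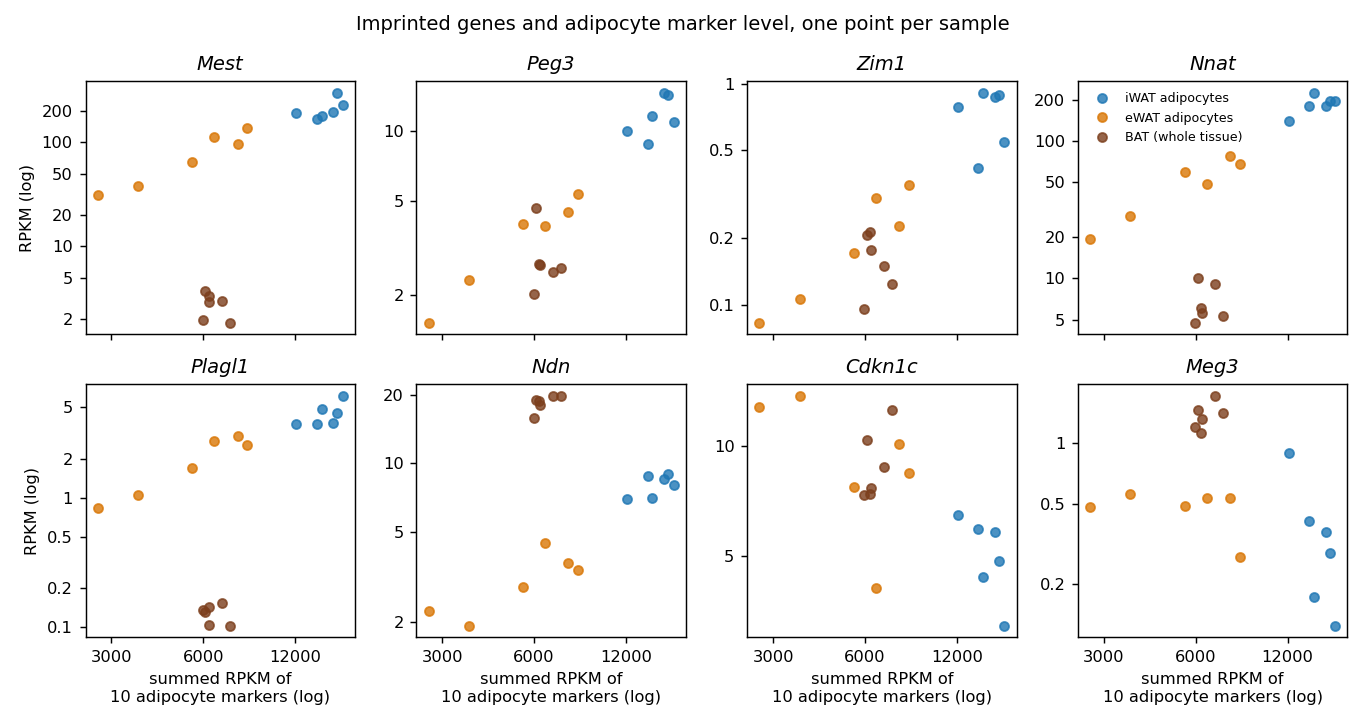
RPKM of 8 imprinted genes (log scale) against the summed RPKM of 10 adipocyte markers (log scale), 1 point per sample. In eWAT adipocytes, where the sum runs from 2704 to 8350, Mest, Peg3, Zim1, Nnat, Plagl1 and Ndn were lowest in the 2 samples with the smallest sums, whereas the BAT samples, at sums of 5978 to 7356, lay below all eWAT samples for Mest, Nnat and Plagl1 and above them for Ndn and Meg3.

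Since the eWAT samples of mice 1 and 3 held the least adipocyte marker RNA, the comparisons were repeated without them. The 6 genes were still higher in iWAT adipocytes and Cdkn1c in eWAT adipocytes, where 60.2% of all genes were called (29.6% higher in iWAT and 30.6% higher in eWAT), and the median of the 8 genes was 1.10. Mest was then at a log2 fold change of 1.04 (edgeR adjusted p = 0.00156), Nnat at 1.55 (adjusted p = 8.69e-06) and Cdkn1c at -0.59 (adjusted p = 0.0389). Against BAT, 3 of the 9 genes were higher in eWAT and 4 in BAT, where 80.8% of all genes were called, 40.0% higher in eWAT and 40.8% higher in BAT. The white samples had been sequenced in 2 lanes per the labels. From means within a lane, the iWAT over eWAT log2 ratio of Mest was 0.89 in lane 1 (2 iWAT and 4 eWAT samples) and 2.15 in lane 2 (4 and 2 samples). For Peg3, Zim1, Nnat, Plagl1 and Ndn the ratios were 0.92 to 1.92 in lane 1 and 1.72 to 2.47 in lane 2. The depots did not overlap in either lane for these genes. No share of all genes without overlap is given, so this is a check on lane and does not set them apart from other genes. Cdkn1c was at -0.78 and -1.08. BAT was sequenced in other lanes, so lane and tissue cannot be told apart there.

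Over the 6 mice of a tissue, Mest was compared with the other 8 genes, with Sfrp5, a secreted inhibitor of Wnt signaling known to rise and fall with Mest in expanding fat, and with Lep, which encodes the adipocyte hormone leptin. Of these 30 relations, 5 passed after adjustment by Pearson's r, 4 of them in eWAT adipocytes, and 2 of these, Zim1 and Sfrp5, also passed by Spearman's rho (adjusted p = 0.0417 for each). In eWAT, Mest was related to Zim1 (r = 0.991, exact permutation p = 0.00139, adjusted p = 0.0208, rho 1 with exact p = 0.00278), Sfrp5 (r = 0.984, exact p = 0.00139, adjusted p = 0.0208, rho 1 with exact p = 0.00278), Lep (r = 0.975, exact p = 0.00278, adjusted p = 0.0278, rho 0.943 with exact p = 0.0167) and Peg3 (r = 0.940, exact p = 0.00556, adjusted p = 0.0333, rho 0.829 with exact p = 0.0583). Without the 2 samples farthest from the median Mest level, r was 0.976 for Zim1, 0.993 for Sfrp5, 0.897 for Lep and 0.670 for Peg3. In BAT, Mest was related to Sfrp5 (r = 0.968, exact p = 0.00556, adjusted p = 0.0333, rho 0.829 with exact p = 0.0583, 0.850 without 2 samples), at means of 2.80 and 0.997 RPKM, and this relation was at the threshold with a pseudocount of 1 (adjusted p = 0.05). In iWAT adipocytes none passed, and r was 0.640 for Sfrp5 (exact p = 0.174, adjusted p = 0.326, rho 0.486 with exact p = 0.356) and 0.708 for Lep (exact p = 0.118, adjusted p = 0.239, rho 0.829 with exact p = 0.0583), each near 0 without 2 samples (-0.0197 and 0.0394). Lep is also 1 of the 10 adipocyte markers. The relation of Sfrp5 with the adipocyte sum was not computed. In eWAT, Mest, Peg3 and Zim1 also ran with the adipocyte sum (r = 0.968, 0.984 and 0.934). None of these passed after adjustment over 189 relations, where a single relation could not pass alone. No share of all genes related to Mest as closely within a tissue is given here, so the passing relations do not set these partners apart from other genes.

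Between the white depots of mice with the same number, no gene passed. The largest r, that of Mest, was 0.675 over 6 mice (exact permutation p = 0.131, adjusted p = 0.836 over 9 genes, rho 0.714 with exact p = 0.136), and it was 0.819 without the 2 mice farthest from the median iWAT level. Peg3 had an r of 0.495 (exact p = 0.294, adjusted p = 0.836, rho 0.60 with exact p = 0.242, 0.247 without 2 mice). The sample numbers in the titles were taken as mouse numbers. Over all expressed genes, same-numbered iWAT and eWAT samples had correlations of their deviations from the depot mean of -0.300 to 0.523, compared with -0.501 to 0.517 for samples with other numbers.

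The 6 genes known to vary with Mest in expanding fat, a list with Sfrp5, Lep, Bmp3, Nkd1, Npr3 and Cav1, were all higher in iWAT than in eWAT adipocytes, with a median log2 fold change of 1.38. Of all genes tested, 34.1% were higher in iWAT, and their median was 0.00. Sfrp5 was at 87.4, 38.5 and 0.997 RPKM in iWAT, eWAT and BAT, and Bmp3, a bone morphogenetic protein, at 14.2, 4.43 and 0.193 RPKM. Against BAT, all 6 were higher in iWAT and 4 were higher in eWAT, where Npr3 (edgeR adjusted p = 0.829) and Cav1 (adjusted p = 0.794) did not pass. Of all genes, 38.1% were higher in iWAT than in BAT and 41.1% were higher in eWAT than in BAT. Scaled to adipocyte marker reads, none of the 6 passed between the white depots, with a median of 0.02. On this scale the median of all genes was -1.61. Of all genes, 84.1% were called higher in eWAT and 0.82% higher in iWAT, so the 6 stayed above the bulk of genes. For Lep the value is partly set by the scaling, since it is 1 of the 10 markers. Over the 12 white samples, with each depot centred on its mean, the genes with the values most like those of Mest among 13287 were Copg2 (r = 0.998), Prps1 (0.982), 1700047G03Rik (0.978), Gm14703 (0.976) and Pla2g2e (0.974). Copg2 overlaps Mest, and its count may include Mest reads. Sfrp5 ranked 47, Klf14 58 and Lep 75, and of the 9 genes Peg3 ranked 396, Plagl1 420 and Cdkn1c 11036 (r = -0.626). Adipoq, an adipocyte marker, ranked 230 (r = 0.915), between Lep and Peg3. These correlations are across samples that share depth and cell makeup and are given as a description.

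The relations of H19, Meg3 and Cdkn1c with markers of other cell types did not pass after adjustment, and their values are given as a description. A single relation over 6 samples could not pass among 189, so this outcome does not decide whether they are related. In BAT, the 4 samples with H19 of at least 0.784 RPKM had skeletal muscle sums of 88.3 to 156 RPKM, and the 2 samples with lower H19 had sums of 2.18 and 25.2. All 10 muscle markers had a mean of at least 1 RPKM in BAT. The relation had an r of 0.784 (exact permutation p = 0.0472, adjusted p = 0.248 over 189, rho 0.714 with exact p = 0.136) and fell to 0.289 without the 2 samples farthest from the median muscle sum, so it rests on those samples. H19 also ran against the macrophage sum in BAT (r = -0.885, exact p = 0.0125, adjusted p = 0.125, rho -0.943 with exact p = 0.0167, -0.850 without 2 samples), a sum of only 33.4 to 64.0 RPKM. In iWAT adipocytes, Meg3 had an r of 0.955 with the sum of 10 endothelial markers (exact p = 0.00278, adjusted p = 0.075, rho 1 with exact p = 0.00278, 0.878 without 2 samples), and mouse 5 had both the highest Meg3 value, 0.890 RPKM, and the highest endothelial sum, 635 RPKM. Meg3 was related as closely to the mural and smooth muscle sum (r = 0.943, exact p = 0.00139, adjusted p = 0.075, rho 1 with exact p = 0.00278, 0.994 without 2 samples) and to the progenitor and fibroblast sum (r = 0.908, exact p = 0.00139, adjusted p = 0.075, rho 1 with exact p = 0.00278, 0.909 without 2 samples), so the values single out none of these cell types. Cdkn1c also had a rho of 1 with all 3 sums, and its r with the endothelial sum in iWAT adipocytes was similar (r = 0.926, exact p = 0.00556, adjusted p = 0.0955, rho 1 with exact p = 0.00278, 0.929 without 2 samples). In the same samples Plagl1 was lowest where the sum was high (r = -0.900, exact p = 0.0167, adjusted p = 0.137, rho -0.943 with exact p = 0.0167, -0.931 without 2 samples). The part of other cell types in the levels of H19, Meg3 and Cdkn1c was not tested.

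**Figure D4:**
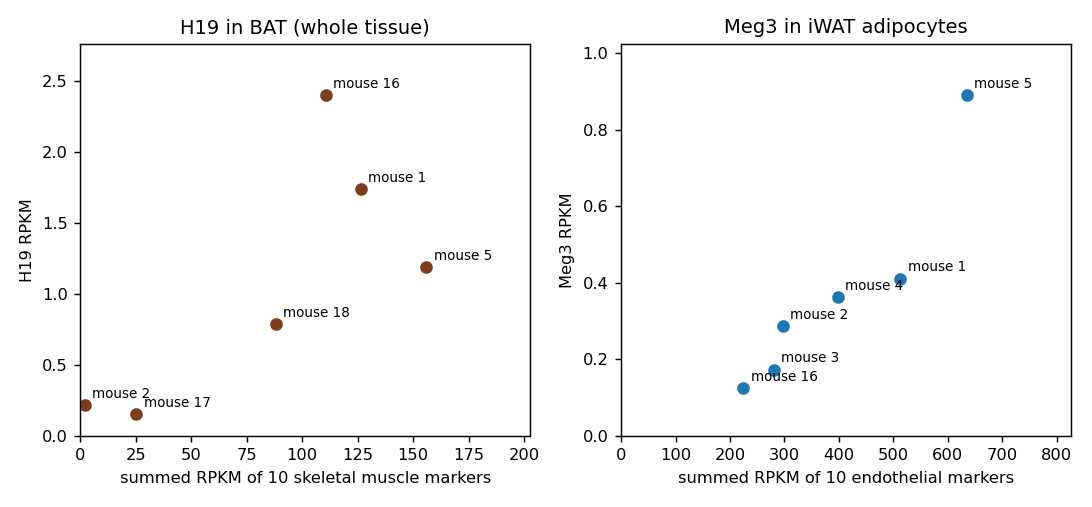
H19 RPKM in the 6 BAT samples against the summed RPKM of 10 skeletal muscle markers (left), and Meg3 RPKM in the 6 iWAT samples against the summed RPKM of 10 endothelial markers (right), with mouse numbers. Mice 2 and 17 were low in both H19 and muscle markers, and mouse 5 was highest in both Meg3 and endothelial markers.

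The neighbours of the 9 genes within their imprinted clusters showed which differences were shared along a cluster. Next to Mest, Copg2, a coat protein gene, was at 49.8, 21.5 and 2.74 RPKM in iWAT, eWAT and BAT, with log2 fold changes of 1.22, 3.58 and 2.38 in the 3 comparisons (iWAT over eWAT, iWAT over BAT and eWAT over BAT; edgeR adjusted p = 0.00152, 4.52e-12 and 3.41e-07). Klf14, a transcription factor gene of the same cluster, was at 3.31 ± 0.745 RPKM in iWAT adipocytes and 1.53 ± 0.826 RPKM in eWAT adipocytes (log2 fold change 1.12, adjusted p = 0.00944). It had at most 3 reads in every BAT sample, which puts iWAT at least 41.6-fold and eWAT at least 19.4-fold above BAT, computed from 3 reads per BAT library. The means of Copg2 and Klf14 thus had the order of Mest. Copg2 overlaps the Mest row by 912 bases, and its count may include Mest reads. Its order is therefore not independent of Mest, which leaves Klf14 as the separate neighbour. Per adipocyte marker read, Copg2 (-0.16, adjusted p = 0.484) and Klf14 (-0.21, adjusted p = 0.44) did not pass between the white depots, where the median of all genes on this scale was -1.61.

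In the H19 cluster, Igf2, the growth factor gene that shares its control region, was at 0.331, 0.102 and 1.22 RPKM and was higher in BAT than in iWAT (log2 fold change -2.50 ± 0.35 SE, adjusted p by edgeR = 9.44e-06) and eWAT adipocytes (-4.17 ± 0.26, adjusted p = 7.28e-10), as was H19. Near Cdkn1c, the antisense RNA Kcnq1ot1 was higher in BAT than in iWAT (-2.76) and eWAT adipocytes (-2.02), whereas Slc22a18, a membrane transporter gene, was at 0.991 and 1.14 RPKM in iWAT and eWAT adipocytes and 0.107 RPKM in BAT (2.56 and 2.79 in favour of iWAT and eWAT). Cdkn1c and its neighbours therefore did not share an order of tissues. Near Meg3, the noncoding RNA Rian was at 0.505, 0.637 and 1.14 RPKM and Dlk1, which encodes a surface protein of preadipocytes, at 0.0652, 0.0122 and 0.314 RPKM, both higher in BAT in each comparison, although Rian against eWAT adipocytes did not pass per adipocyte marker read (-0.43, adjusted p = 0.218). Rian, like Meg3, did not pass between the white depots (-0.35, adjusted p = 0.349). Near Ndn, Snrpn, a splicing factor gene, was at 6.03, 2.55 and 4.19 RPKM. It was higher in iWAT than in eWAT adipocytes (1.25, adjusted p = 0.0005) but did not pass between iWAT adipocytes and BAT (-0.08, adjusted p = 0.499), in contrast to Ndn, whereas per adipocyte marker read it was higher in BAT (-0.72, adjusted p = 4.96e-06) and did not pass between the white depots (-0.14, adjusted p = 0.517, with the median of all genes at -1.61). Magel2, the neighbour of Ndn, had no read in any white sample and 3 to 9 reads in the BAT samples, where 3 reads are the floor used here. Usp29, which starts beside Peg3, had 2 to 12 reads in iWAT adipocytes and at most 4 in the other tissues.

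**Figure D5:**
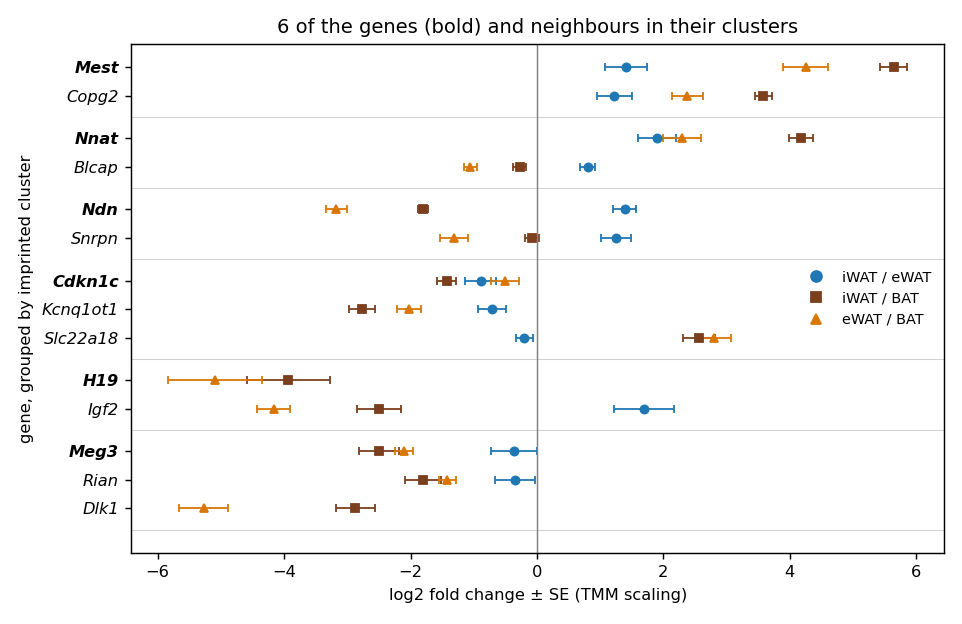
Log2 fold changes with SE (edgeR, TMM scaling, 6 samples per tissue) of 6 of the genes, in bold, and of tested neighbours in the same imprinted cluster, for 3 comparisons given by the marker shape. Mest and Copg2, whose rows overlap, lay to the right of 0 in all 3. H19 and Igf2 lay to the left against BAT, and Slc22a18 lay opposite to Cdkn1c against BAT.

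A wider list held 62 other imprinted genes, 61 of which are in the tables. Of the 40 tested between the white depots, 23 were higher in iWAT adipocytes, 7 were higher in eWAT adipocytes and 10 did not pass, with a median log2 fold change of 0.43, compared with 34.1% and 34.5% of all genes and a median of 0.00. The largest differences were those of Slc22a2 (1.78), Igf2 (1.69) and the adaptor gene Grb10 (1.35) in favour of iWAT, and of Gatm (-2.04), Asb4 (-1.53) and the receptor gene Igf2r (-1.28) in favour of eWAT. Scaled to adipocyte marker reads, none was higher in iWAT adipocytes and 24 were higher in eWAT adipocytes (median -1.15), beside 0.82% and 84.1% of all genes (median -1.61), so this scaling moved the list with all genes. Between iWAT adipocytes and BAT, 18 of 42 were higher in iWAT and 16 in BAT (median 0.11), beside 38.1% and 37.2% of all genes. Between eWAT adipocytes and BAT, 15 were higher in eWAT and 25 in BAT (median -0.45), beside 41.1% and 41.4% of all genes. Scaled to the total count, the counts of the list became 31 and 8 for iWAT and BAT, and 23 and 9 for eWAT and BAT. Of the calls in the list, 79.5% were then higher in iWAT and 71.9% higher in eWAT. Among the calls of all genes these shares were 81.8% and 76.1%, so the list moved with all genes here too. Apart from the cluster neighbours above, Htr2a, a serotonin receptor gene, was called higher in both white depots than in BAT, with 7 to 40 reads in iWAT, 29 to 84 in eWAT and 0 to 5 in BAT, too few there to set the size of the fold, and Gatm was raised in eWAT adipocytes (3.84) and Slc22a2 in BAT over eWAT adipocytes (-3.0).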

How the data were processed

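RNA-seq libraries were prepared from total RNA with a NEBNext Ultra kit, sequenced on a HiSeq instrument and mapped to mm9, with cutadapt 1.16 and HISAT2 2.1.0 named in the submitters' processing notes. The counting program, the annotation and the strand setting are not given in the sources used here. The deposited tables hold 53445 rows per sample, each with a read count and an RPKM value that the authors computed from it. Where a symbol had several rows, that with the greatest mean RPKM across the 18 samples stood for it, and each of the 9 genes had 1.

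Counts were compared between tissues with edgeR 4.0.16 (glmQLFit and glmQLFTest, TMM, two-sided) in R 4.3.3, each comparison on its own 12 samples, after removal of genes whose mean count was under 10. Benjamini-Hochberg adjustment covered every gene tested, and the threshold was 0.05. The fits measure the spread between samples within a tissue and, apart from the replicate block, hold no term for the mouse. By the numbers in the titles, the iWAT and eWAT samples came from the same 6 mice, and 4 of these also gave BAT. The main adjusted p-values therefore do not use this pairing. Correlations used log2(RPKM + 0.1) and two-sided exact permutation over 720 pairings. Alternatives used DESeq2 1.42.0, limma 3.58.1, other scalings and left-out samples. Read numbers cover counting error only. On simulated data, the edgeR test recovered 82 of 99 genes changed by 1 on the log2 scale between iWAT and eWAT adipocytes, 78 of 96 between iWAT adipocytes and BAT and 82 of 99 between eWAT adipocytes and BAT, and 4.81%, 6.01% and 2.76% of the calls were false. Few genes were changed there: between the white depots 99 by 1 and 97 by 2 on the log2 scale, of 19477. In the data 68.6% of genes were called between these depots, so the simulated rates need not hold for the data.

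The 9 genes, the gene lists and the rules for the named genes (cluster neighbours, the 3 largest changes per direction, the 5 genes most like Mest) were chosen with earlier results of these data known. No 2 samples of a tissue agreed within sampling noise (lowest chi-square divided by its degrees of freedom 14.3). Promoter and miRNA sequences are from RefSeq. Zfp264, a gene of the list of other imprinted genes, was not analysed here.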

Additional observations from a re-analysis of the deposited data

Results flagged for a closer look

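In 3 of the 27 groups of 6 samples (9 genes in 3 tissues), 1 sample stood apart from the other 5 by more than Dixon's 95% critical value allows. Chance flags about 1 in 20 groups, 1.35 of 27.

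Peg3 in the BAT sample of mouse 2 was at 4.67 RPKM (2399 reads), and the other BAT samples were at 2.03 to 2.71 RPKM. The same sample had the lowest sum of skeletal muscle markers in BAT, 2.18 RPKM. It also had the highest BAT sums of macrophage (64.0 RPKM), progenitor and fibroblast (82.9 RPKM) and mural and smooth muscle markers (178 RPKM). The part of these cells in the value was not tested.

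Meg3 in the iWAT sample of mouse 5 was at 0.890 RPKM (429 reads), and the other iWAT samples were at 0.125 to 0.411 RPKM. This sample also had the highest sums of endothelial markers (635 RPKM) and of mural and smooth muscle markers (316 RPKM) among the iWAT samples, and the part of these cells in the value was not tested.

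Meg3 in the eWAT sample of mouse 2 was at 0.272 RPKM (147 reads), and the other eWAT samples were at 0.483 to 0.557 RPKM. This sample had the highest sum of adipocyte markers in eWAT, 8350 RPKM.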

How the results depend on the processing

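The number of the 9 genes called stayed at 7, 9 and 7 in the 3 comparisons with a replicate block, that is, with the sample number as a term, and the blocked fit gave Mest at 1.57 between the white depots (edgeR adjusted p = 0.000769). No share of all genes is given for the blocked fit, so this count does not set the 9 genes apart. In the main fit, 68.6%, 75.3% and 82.5% of all genes were called in the 3 comparisons. Same-numbered samples did not deviate together more than others, so the pairing rests on the titles alone. Scaled to adipocyte marker reads, 3 genes were called between the white depots, where 84.9% of all genes were called. Plagl1 (-0.18) and Ndn (-0.0889) changed sign, with the median of all genes at -1.61. Against BAT, the sign of 3 small eWAT differences turned. Peg3 was at 0.65 by total count, 0.26 and 0.22 by limma with a pseudocount of 0.1 and 1, 0.46 per adipocyte marker read and 0.0744 without eWAT mice 1 and 3. Zim1 was at 0.66, 0.18, 0.0526, 0.45 and 0.14 under these settings. Cdkn1c was at 0.40, 0.0019, 0.0098 and 0.62 under the first 4, and at -0.40 (adjusted p = 0.091) with no filter. In BAT, the correlations of Mest with H19 (0.202), Ndn (-0.0127) and Meg3 (-0.16) changed sign when RPKM was scaled by TMM. Of the fold changes under other settings, 541 kept direction and side of the threshold, 16 turned, 12 lost the call and 2 gained it. H19 in white adipocytes is limited by 1 to 13 reads per sample.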
